A study of Mus musculus with 27 samples.

Results

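Collagens are the extracellular matrix proteins built from 3 chains wound into a triple helix, each chain encoded by its own gene. Of the 44 protein-coding genes whose symbols have the form of a collagen chain (Col, a type number, a and a chain number), 33 had 10 or more counts in at least 3 of the 27 libraries and are described here as the collagen genes. All 33 also passed the filter on low counts of the differential expression test. The mice were C57BL/6 males aged 28 days at the first gavage and 56 days at the end, 3 in each of 9 groups, and RNA was taken from their scraped colonic epithelium. One group received sesame oil vehicle by oral gavage, and the others TCDD in sesame oil at low doses of 0.01, 0.03 and 0.1 μg/kg, middle doses of 0.3 and 1 μg/kg or high doses of 3, 10 and 30 μg/kg, with 7 gavages at intervals of 4 days. TCDD is a dioxin that activates the transcription factor AhR (aryl hydrocarbon receptor), and all groups shared strain, sex, age, diet and schedule, with no engineered allele named in the labels. For the collagen genes, the questions are which chains differed by dose, how fibrillar chains compared with basement membrane chains, and how far mice of the same dose differed.

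The collagen classes differ in where and how they assemble. Fibrillar collagens (types I, III, V and XI among them) form the cables of connective tissue and are made mainly by fibroblasts and smooth muscle cells, while type IV collagen forms the sheet of basement membranes under epithelia and around blood vessels, muscle fibers and nerves. FACIT collagens sit on the surface of fibrils, type VI collagen forms beaded filaments, type VIII collagen forms hexagonal networks, type VII collagen forms the anchoring fibrils that hold an epithelium to its stroma, and types XV and XVIII (multiplexins) lie near basement membranes. In the colon, the epithelium rests on a lamina propria and a muscle layer rich in these proteins. In bulk RNA, fewer cells of a type and less RNA per cell cannot be told apart.

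Depth was similar between libraries, with 9305441 to 14371035 counts on genes per mouse (median 11651026). Levels are given as CPM, read counts scaled to a common library total with TMM correction. The p-values measure the spread between mice of these groups. The epithelial marker list held 44835 to 53124 CPM in vehicle and 45710 to 52825 CPM at 30 μg/kg, so the labelled tissue was present in both groups, and 0 of its 10 genes passed the test. The index barcodes given with the deposited counts repeat between libraries. The first use of each barcode covers 16 mice (every mouse up to 0.3 μg/kg with replicate 1 at 1 μg/kg) and the second use covers 11 mice (replicates 2 and 3 at 1 μg/kg with every mouse at higher doses), here called index sets 1 and 2. The labels do not say whether these sets were separate preparations or runs. Vehicle and the doses up to 0.3 μg/kg share set 1, while 3, 10 and 30 μg/kg share set 2, so for these 3 doses against vehicle the index set and the dose cannot be told apart. A term for the index set is estimated within 1 μg/kg alone, from 1 mouse of set 1 against 2 of set 2. That 1 mouse also had a smooth muscle marker sum of 476 CPM, against 144 and 153 CPM in the others, so every value given with the term rests on it.

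The 11 collagen genes left out had few reads. Col13a1 reached 10 counts in 2 libraries and Col9a2 in 1, just under the limit, while Col9a3 (6 libraries), Col24a1 (8 libraries) and Col8a2 (10 libraries) were the members nearest to it. Col17a1, a hemidesmosome collagen of stratified epithelia, had at most 2 counts in any library, and Col2a1, the cartilage fibrillar chain, at most 1. Col4a3 and Col4a4, which join Col4a5 in a specialised type IV network, had at most 7 and 9 counts.

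Among the members, 12 had a mean of at least 10 CPM over the 27 mice, 18 lay between 1 and 10 CPM and 3 lay under 1 CPM. Per kb of merged exons, Col3a1 (type III) was highest at 5.41 CPM per kb, followed by Col6a1 (type VI) at 4.39, Col8a1 (type VIII) at 4.19, Col4a1 (type IV) at 3.55 and Col1a1 (type I) at 3.29. Per kb of the longest protein-coding transcript the order changed, with Col3a1 at 9.54 CPM per kb, Col8a1 at 6.42, Col6a1 at 4.69, Col1a2 at 4.68 and Col4a1 at 4.01, so places after the first depend on the length used. Col3a1, Col1a1 and Col1a2 made up 39.6, 24.1 and 14.8% of the summed fibrillar level per kb of merged exons. Col4a1 and Col4a2, which pair in the common type IV trimer, made up 51.1 and 39.1% of the summed type IV level. Their annotated start sites lie 21 bases apart on opposite strands of chromosome 8 (GRCm38), at 11312826 for Col4a1 and 11312805 for Col4a2. In the annotation, 23 of the 33 genes overlap another gene, and whether reads were assigned by strand is not stated, so reads from such overlaps are uncertain.

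Col8a1 and Col8a2 encode the chains of type VIII collagen, and at the high doses their levels differed from vehicle in opposite directions. For Col8a2 this rests on few reads, with 10 or more counts in only 10 libraries. Its group means were 0.337 CPM in vehicle and 1.08 to 1.30 CPM at the high doses. A chain this low can enter the test mainly through the groups where it is higher, so its direction is not independent of the count rule. The gene Col8a1 (ENSMUSG00000068196) lies at chr16:57624258-57754737 on the minus strand and Col8a2 (ENSMUSG00000056174) at chr4:126286793-126314330 on the plus strand of GRCm38, and neither overlaps another annotated gene. Their upstream sequences are shown because these chains of the same collagen passed the test in opposite directions. Each is the 250 bases before the RefSeq start site (GRCm38.p6), 5′ to 3′ on the strand of the gene, and capitals would mark GCGTG, the core of the AhR binding site, or its reverse complement CACGC.
Col8a1 (chr16:57754738-57754987, minus strand): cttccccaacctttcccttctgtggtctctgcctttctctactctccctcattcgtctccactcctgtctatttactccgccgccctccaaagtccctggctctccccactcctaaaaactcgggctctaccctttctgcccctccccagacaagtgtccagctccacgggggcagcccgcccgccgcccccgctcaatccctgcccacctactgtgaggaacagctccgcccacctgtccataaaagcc
Col8a2 (chr4:126286544-126286793, plus strand): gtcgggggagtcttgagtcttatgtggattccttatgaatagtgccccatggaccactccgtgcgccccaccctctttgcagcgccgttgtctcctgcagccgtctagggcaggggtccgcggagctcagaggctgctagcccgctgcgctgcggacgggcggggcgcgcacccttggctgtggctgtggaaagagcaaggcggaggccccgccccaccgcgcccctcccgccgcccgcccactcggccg
Neither sequence holds these letters on either strand, so no base is in capitals. The letters were present in 28.2% of the 32851 promoter windows of this length in the RefSeq table and in windows of 6 of the 26 collagen genes that the table holds (Col16a1, Col4a1, Col4a2, Col5a3, Col6a2 and Col11a2).

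Col8a1 was the collagen gene with the clearest relation to dose. Vehicle-treated mice had 37.7, 49.9 and 35.9 CPM. At 0.01 μg/kg the mice had 25.3, 43.9 and 40.4 CPM, at 0.03 μg/kg 54.1, 53.5 and 52.1 CPM, at 0.1 μg/kg 54.9, 40.6 and 48.0 CPM, and at 0.3 μg/kg 45.35, 37.1 and 33.4 CPM. Up to this dose the levels lay around those of vehicle, with all 3 mice at 0.03 μg/kg above them. At 1 μg/kg Col8a1 was at 35.1, 24.3 and 27.7 CPM, at 3 μg/kg at 23.8, 21.7 and 18.3 CPM, at 10 μg/kg at 13.7, 11.5 and 19.5 CPM and at 30 μg/kg at 20.35, 7.02 and 10.4 CPM. Every mouse at 1 μg/kg and above was below every vehicle-treated mouse.

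Against vehicle, Col8a1 at 30 μg/kg fell by 1.69 on the log2 scale (SE 0.27, 3.24-fold, adjusted p = 0.000378) and at 10 μg/kg fell by 1.46 (SE 0.27, 2.75-fold, adjusted p = 0.0035), with edgeR (quasi-likelihood test, Benjamini-Hochberg adjusted over 16496 genes). At 3 μg/kg the log2 difference was -0.95 (SE 0.26, adjusted p = 0.0716), which did not pass. Over dose rank, with the 9 groups numbered in order of dose, Col8a1 fell by 0.24 on the log2 scale per step (SE 0.04, adjusted p = 2.49e-05). The difference between 30 and 3 μg/kg was -0.74 (SE 0.27, adjusted p = 0.274) and did not pass. Col8a1 passed at 30 μg/kg in each of the 27 fits that left out 1 mouse, with log2 fold changes between -2.24 and -1.41.

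The slope of Col8a1 was also computed within each index set. Group means at 3, 10 and 30 μg/kg, all in set 2, were 21.3, 14.9 and 12.6 CPM. In set 1 the slope per dose step was -0.01 (adjusted p = 0.987), and in set 2, which starts at 1 μg/kg, it was -0.36 (adjusted p = 0.0661). With a term for the index set the 30 μg/kg value was -1.26 (adjusted p = 0.129) and the slope -0.09 (adjusted p = 0.426), neither of which passed. At 1 μg/kg, the mouse in set 1 had 35.1 CPM and the mice in set 2 had 24.3 and 27.7 CPM.

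Col8a2 was near the limit of detection, with 1 to 21 counts per library. Vehicle-treated mice had 0.0984, 0.422 and 0.491 CPM, and mice at 30 μg/kg had 1.51, 0.669 and 1.55 CPM. At 10 μg/kg the levels were 1.45, 1.54 and 0.895 CPM, and at 3 μg/kg 1.47, 0.686 and 1.09 CPM, so every mouse at these 3 doses was above every vehicle-treated mouse. Col8a2 rose by a log2 fold change of 1.86 at 30 μg/kg (SE 0.59, adjusted p = 0.0427, edgeR), a call that was lost in 6 of the 27 fits without 1 mouse. It kept the call when the index set was a term of the fit, where the value was 4.10 (adjusted p = 0.0165) and rests on the set 1 mouse at 1 μg/kg. The call was lost with the smooth muscle marker list as a covariate, where the value was 1.32 (adjusted p = 0.242), and by limma voom (adjusted p = 0.0556). In a fit of only the groups compared Col8a2 did not enter the test, so the call was kept in 4 of 7 alternatives.

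**Figure D1:**
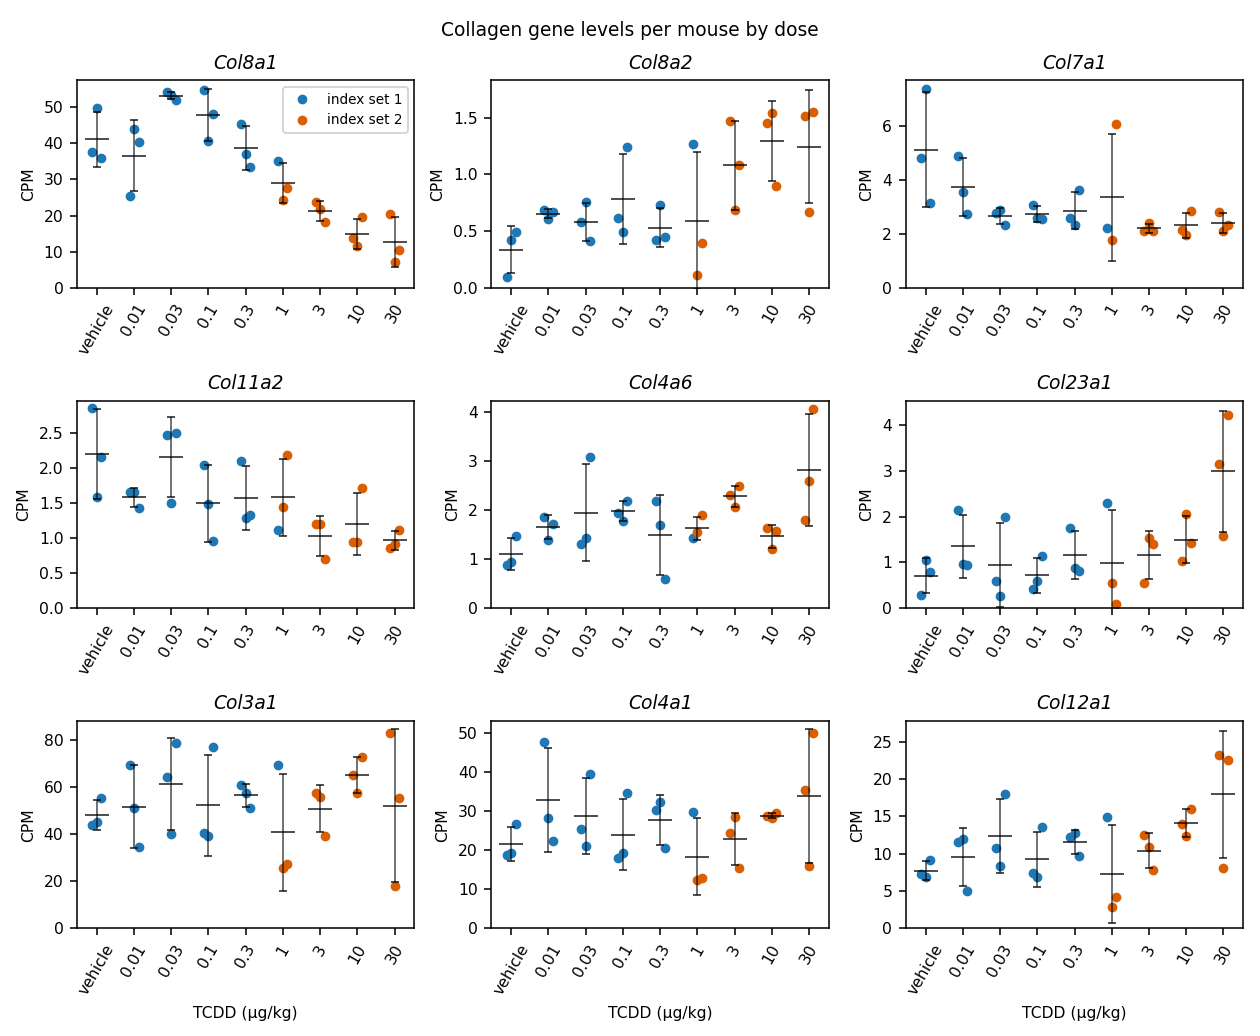
CPM (TMM scaled) of 9 collagen genes in each of 27 mice by dose of TCDD in μg/kg, with the mean ± SD of each group of 3 mice as a bar; blue points are index set 1 and orange points index set 2. Col8a1 is between 7.02 and 20.35 CPM at 30 μg/kg against 35.9 to 49.9 CPM in vehicle, while Col3a1 spans 17.98 to 82.7 CPM at 30 μg/kg and overlaps vehicle.

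At 30 μg/kg, 5 of the 33 collagen genes (15.2%) passed the test (adjusted p below 0.05 with a change of 1.5-fold or more) against 6.16% of the 16496 genes tested. Of these, 2 rose (Col8a2 and Col4a6) against 2.95% of all genes, and 3 fell (Col8a1, Col11a2 and Col7a1) against 3.21% of all genes. The median log2 fold change was 0.23 over the collagen genes and -0.00 over all genes tested, and 25 of the 33 values were above 0. At 10 μg/kg 1 collagen gene passed (Col8a1) against 1.78% of all genes. None of the 33 passed at 3 μg/kg (0.697% of all genes passed), at 1 μg/kg (0.2%) or at 0.01 to 0.3 μg/kg (0% at each dose). At an unadjusted p under 0.05 there were 6 collagen genes at 3 μg/kg (18.2%, against 16% of all genes) and 1 at each of the 5 lower doses (3.03%). The shares of all genes at those doses, from the lowest dose up, were 6.35, 4.64, 6.37, 5.19 and 9.8%. At 3 μg/kg DESeq2 called 2 collagen genes, against 201 of all 30487 genes, and limma voom 0, against 95 of 16496. Both called 0 collagen genes at the lower doses. The most genes called there were 72 of 30487 by DESeq2 and 24 of 16496 by limma voom, both at 1 μg/kg. Neither 30 against 3 μg/kg (0.461% of all genes passed) nor 10 against 3 μg/kg (0.0485%) had a collagen gene past the threshold, with 3 and 1 at an unadjusted p under 0.05 (against 11% and 4.8% of all genes) and 0 by DESeq2 or limma voom in either comparison. In these comparisons DESeq2 called 144 and 12 of 30487 genes, and limma voom 68 and 6 of 16496.

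Col4a6, a minor type IV chain of smooth muscle and some epithelial basement membranes (chrX:141165403-141474076, minus strand), had 0.886, 0.949 and 1.47 CPM in vehicle and 1.80, 2.59 and 4.05 CPM at 30 μg/kg, from 8 to 47 counts per library over all mice. The groups did not overlap, and Col4a6 rose by a log2 fold change of 1.33 (SE 0.39, adjusted p = 0.0295, edgeR). The highest mouse, replicate 3 at 30 μg/kg, was also the highest of its group in 25 of the 33 collagen genes. Without it the value was 0.98 (adjusted p = 0.149), and with the index set term it was 1.06 (adjusted p = 0.428). The call was also lost in a fit of only the groups compared (adjusted p = 0.0747) and by limma voom (adjusted p = 0.0588). At 3 μg/kg Col4a6 was at 2.30, 2.06 and 2.48 CPM and at 10 μg/kg at 1.62, 1.199 and 1.57 CPM, so the levels did not climb in order of dose.

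Col7a1, the chain of the anchoring fibril (chr9:108953586-108984875, plus strand), was lower at 30 μg/kg, where it fell by 1.07 on the log2 scale (SE 0.34, adjusted p = 0.0446, edgeR). Vehicle-treated mice had 4.82, 7.38 and 3.14 CPM and mice at 30 μg/kg 2.805, 2.09 and 2.33 CPM, without overlap. The level was already 2.77, 2.87 and 2.33 CPM at 0.03 μg/kg, and a single mouse at 1 μg/kg had 6.06 CPM. Vehicle replicate 2 held the highest value of all 27 mice, and without it the value at 30 μg/kg was -0.72 (adjusted p = 0.237). The call was kept in 11 of the 27 fits without 1 mouse and in 3 of 7 alternatives. It was lost with the index set term (-1.91, adjusted p = 0.0758), the smooth muscle covariate (-0.93, adjusted p = 0.172), only the groups compared (-1.07, adjusted p = 0.0832) and limma voom (-0.98, adjusted p = 0.0577).

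Col11a2, a fibrillar chain best known from cartilage (chr17:34039437-34066685, plus strand), was lower at 30 μg/kg, where it fell by 1.18 on the log2 scale (SE 0.35, adjusted p = 0.0315, edgeR). Its level was 2.85, 1.58 and 2.16 CPM in vehicle and 0.863, 0.920 and 1.12 CPM at 30 μg/kg, without overlap, from 9 to 34 counts per library over all mice. At 10 μg/kg the mice had 0.939, 0.942 and 1.72 CPM, the last within the vehicle range. The call was kept in 22 of the 27 fits without 1 mouse, and it was lost with the index set term (-1.90, adjusted p = 0.0808), with the smooth muscle covariate and in a fit of only the groups compared (adjusted p = 0.0636).

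Col23a1, a membrane-spanning collagen (chr11:51289920-51583918, plus strand), and Col12a1, a FACIT collagen of fibril surfaces (chr9:79598991-79718831, minus strand), had differences of over 1 on the log2 scale that did not pass. Col23a1 was at 0.295, 1.05 and 0.785 CPM in vehicle and at 3.16, 1.59 and 4.22 CPM at 30 μg/kg, a log2 fold change of 2.07 (SE 0.69, adjusted p = 0.057, edgeR). Col12a1 was at 7.28, 6.85 and 9.13 CPM in vehicle and at 23.2, 8.11 and 22.6 CPM at 30 μg/kg, a log2 fold change of 1.21 (SE 0.45, adjusted p = 0.0834, edgeR). For Col12a1 replicate 2 at 30 μg/kg lay within the vehicle range and the other two mice above it. When the index set was a term of the fit both passed, Col23a1 at 4.88 (adjusted p = 0.0216) and Col12a1 at 3.28 (adjusted p = 0.0108), values that rest on the set 1 mouse at 1 μg/kg, where Col12a1 was at 14.9 CPM against 2.89 and 4.17 CPM. With the smooth muscle covariate neither did, at 0.64 and 0.16. Both passed without the filter on low counts, and Col23a1 also with DESeq2 (adjusted p = 0.0391) and in a fit of only the groups compared (adjusted p = 0.0452).

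Over dose rank, 7 of the 33 collagen genes (21.2%) passed the test of the slope, against 23.4% of all genes. Col8a2, Col23a1 and Col6a5 rose (3 genes, 11.8% of all genes) and Col8a1, Col11a2, Col7a1 and Col16a1 fell (4 genes, 11.6% of all genes). Per dose step the log2 slope was 0.19 for Col8a2 (adjusted p = 0.00377), 0.18 for Col23a1 (adjusted p = 0.0264), 0.11 for the type VI chain Col6a5 (adjusted p = 0.0245), -0.13 for Col11a2 (adjusted p = 0.00229), -0.11 for Col7a1 (adjusted p = 0.00872) and -0.05 for the FACIT chain Col16a1 (adjusted p = 0.0394), all by edgeR. Once the index set entered the edgeR fit, 0 of the 33 slopes passed, against 0.0667% of all genes. In index set 2 alone Col12a1, Col23a1 and Col4a2 passed, 3 of the 32 tested there (9.38%), against 3.06% of all genes. With the smooth muscle covariate Col23a1 (adjusted p = 0.371) and Col6a5 (adjusted p = 0.145) lost their slopes.

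**Figure D2:**
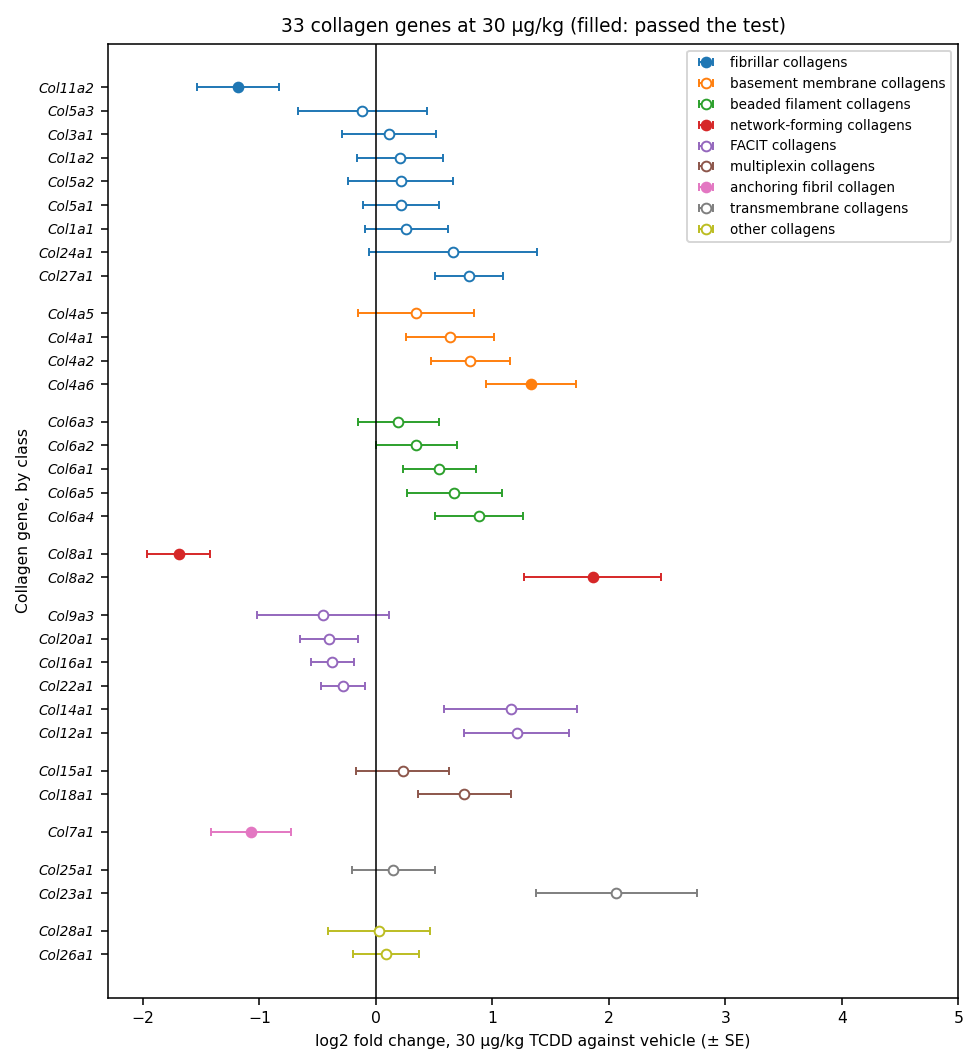
Log2 fold change (x axis, ± SE) of the 33 collagen genes at 30 μg/kg TCDD against vehicle, 3 mice per group, grouped by collagen class; filled points passed edgeR's test and open points did not. Col8a1 at -1.69 and Col8a2 at 1.86 are the chains of the same collagen, and Col8a2 was near the limit of detection. The type IV and type VI chains all lie above 0 but, with the exception of Col4a6, did not pass.

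By class, the fibrillar collagens had a median log2 fold change of 0.21 at 30 μg/kg over 9 genes, with 1 called lower (Col11a2). The most abundant were near 0, with 0.11 for Col3a1 (SE 0.40, adjusted p = 0.892), 0.26 for Col1a1 (SE 0.36, adjusted p = 0.686), 0.21 for Col1a2 (SE 0.37, adjusted p = 0.769) and 0.22 for Col5a1 (SE 0.32, adjusted p = 0.714, all edgeR). The 4 type IV chains had a median of 0.73, with 0.64 for Col4a1 (SE 0.38, adjusted p = 0.29), 0.81 for Col4a2 (SE 0.34, adjusted p = 0.122) and 0.35 for Col4a5 (SE 0.50, adjusted p = 0.701). The 5 beaded filament chains had a median of 0.55 and none passed, with values from 0.19 (Col6a3) to 0.89 (Col6a4), and with 0.55 for Col6a1 and 0.35 for Col6a2. Replicate 3 at 30 μg/kg bore on these values, and without it Col6a4 was at 0.24, Col6a1 at 0.28, Col6a2 at 0.058, Col6a3 at 0.0034, Col4a1 at 0.25 and Col4a2 at 0.47. Without replicate 2 the same chains lay between 0.50 (Col6a3) and 1.12 (Col6a4). The 6 FACIT collagens had a median of -0.33, with Col12a1 and Col14a1 (1.16, adjusted p = 0.194) above 0 and Col16a1, Col20a1, Col22a1 and Col9a3 between -0.45 and -0.28. When the fit included the index set, 4 of the 33 genes (12.1%) passed against 4.43% of all genes, namely Col8a2, Col12a1, Col23a1 and Col4a2 (1.90, adjusted p = 0.0494). In that fit Col1a1 went to 1.44 and Col3a1 to 1.50043, and neither passed. The multiplexins Col15a1 and Col18a1 were at 0.23 (adjusted p = 0.758) and 0.76 (adjusted p = 0.23).

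More collagen genes were without overlap with vehicle at 10 μg/kg than at 30 μg/kg. At 10 μg/kg every mouse was above every vehicle-treated mouse in 12 of the 33 genes (36.4%), against 12.1% of all genes tested, and below in 3 (9.09%), against 13.1%. Those above were Col1a1, Col1a2, Col3a1, Col12a1, Col27a1, Col4a1, Col4a2, Col6a1, Col6a3, Col6a4, Col6a5 and Col8a2, and none of them passed the test at that dose. Col3a1 was at 65.1, 57.3 and 72.5 CPM at 10 μg/kg against 43.98, 45.1 and 55.5 CPM in vehicle. Col4a1 was at 28.8, 28.3 and 29.5 CPM against 18.9, 19.4 and 26.7 CPM. Some marker sums at 10 μg/kg were also above every vehicle-treated mouse, with 292 to 414 CPM for smooth muscle, 39.2 to 42.9 CPM for pericytes and 32.2 to 54.0 CPM for endothelial cells. The fibroblast sum overlapped vehicle, at 39.4 to 48.2 CPM against 35.3 to 43.3 CPM. So did the sums for adipocytes (26.0 to 53.7 CPM against 8.07 to 32.8 CPM) and mesothelium (2.48 to 7.53 CPM against 1.67 to 3.79 CPM). Smooth muscle sums also lay above every vehicle-treated mouse at 0.3 μg/kg (189 to 534 CPM) and 3 μg/kg (259 to 434 CPM). With the smooth muscle covariate Col8a1 was again the 1 collagen gene that passed at this dose. At 30 μg/kg the counts were 5 genes above, against 14.5% of all genes, and 4 below, against 15.2%, and the type I, III and IV chains Col1a1, Col1a2, Col3a1 and Col4a1 overlapped vehicle. Col27a1, a fibrillar chain, lay above every vehicle-treated mouse in every TCDD group other than 0.1 μg/kg, without passing at any dose. It was at 3.54, 3.9001 and 3.73 CPM in vehicle and at 4.17, 4.10 and 11.3 CPM at 30 μg/kg, a log2 fold change of 0.80 (SE 0.29, adjusted p = 0.081, edgeR).

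Col3a1 and Col1a1 differed widely between mice at 1 and at 30 μg/kg, while Col11a2 ran from 0.863 to 1.12 CPM at 30 μg/kg. Col3a1 was at 82.7, 17.98 and 55.3 CPM in the 3 mice at 30 μg/kg, and Col1a1 at 33.01, 7.69 and 23.9 CPM. Replicate 2 at 30 μg/kg was the lowest of its group in 27 of the 33 collagen genes and in 8 of the 9 fibrillar genes, and it held the lowest Col3a1 and Col1a1 of all 27 mice. At 1 μg/kg Col3a1 was at 69.2, 25.8 and 27.1 CPM and Col1a1 at 24.1, 10.2 and 11.02 CPM, with the higher mouse in index set 1 and the lower mice in index set 2. At 3 μg/kg replicate 3 was the lowest of its group in 27 of the 33 genes, with Col3a1 at 39.2 CPM against 57.2 and 55.8 CPM. Summed over the 33 genes, the level ran from 171 CPM (replicate 2 at 30 μg/kg) to 458 CPM (replicate 3 at 0.03 μg/kg).

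**Figure D3:**
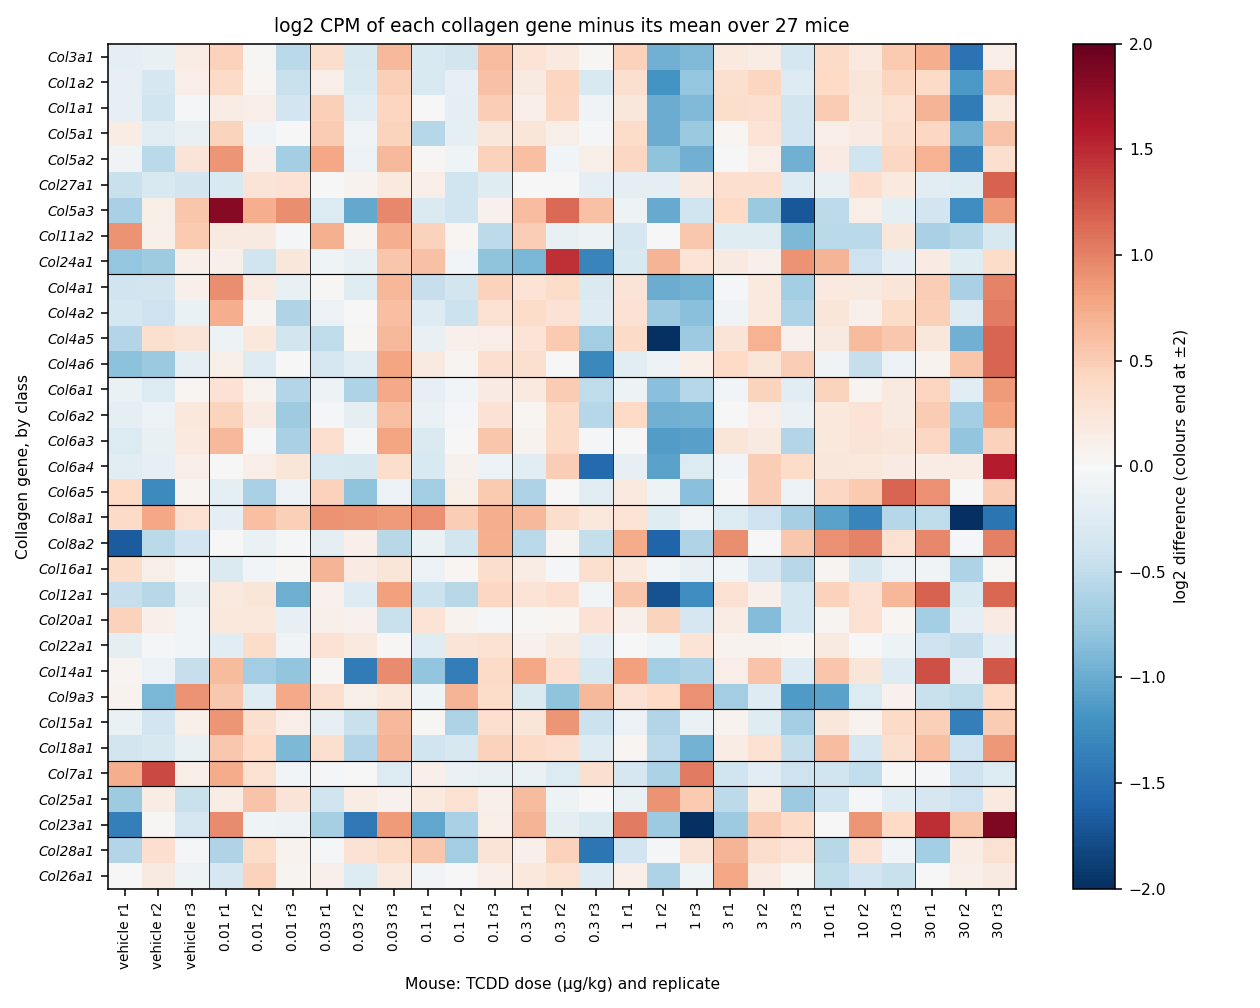
Log2 CPM of the 33 collagen genes (rows, by class) in 27 mice (columns, by dose in μg/kg and replicate), each minus the mean of that gene over all mice; red is above and blue below the mean. Columns of 1 color, such as replicates 2 and 3 at 1 μg/kg (low) and replicate 3 at 30 μg/kg (high), run across most fibrillar, type IV and type VI chains, while Col8a1 is blue from 3 μg/kg upward.

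The spread between mice of the same dose was larger for collagen genes than for most genes. The biological coefficient of variation (BCV), edgeR's estimate of the spread between replicates beyond counting noise, had a median of 0.293 over the 33 genes and 0.125 over all genes tested. It was above the trend for genes of the same abundance in 25 of the 33 collagen genes (75.8%) and in 24.8% of all genes. All 5 type VI chains and 8 of the 9 fibrillar chains were above the trend. Col3a1 had a BCV of 0.340 against a trend of 0.132, and Col4a1 0.317 against 0.142. Col16a1 (0.142), Col22a1 (0.0846) and Col26a1 (0.0841) were below their trends of 0.162, 0.211 and 0.269.

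Deviations of mice from the mean of their group moved together across chains. Correlated with the deviations of Col3a1 in log2 CPM over the 27 mice, 20 of the other 32 collagen genes had r above 0.5 and 11 had r above 0.8, among them Col1a1 (0.95), Col1a2 (0.94), Col12a1 (0.92) and Col4a1 (0.89). Col7a1 (0.01), Col11a2 (-0.03) and Col20a1 (-0.19) stood outside this group, and Col8a1 was at 0.52. These r values are a description over mice that share their dose groups and index sets. The non-collagen genes nearest to Col1a1 by the same measure were Bgn (0.88), Serpinh1 (0.88), Ebf1 (0.88), Postn (0.87) and Igha (0.86), where Bgn and Postn encode matrix proteins and Serpinh1 the chaperone of procollagen. Nearest to Col4a1 were Vim (0.93), Msn (0.93), Sparc (0.92), Emilin1 (0.92) and Ehd2 (0.92), where Vim encodes the intermediate filament of mesenchymal cells. For Col8a1, added after its values were seen, genes among the nearest were Acsm2 (0.80), Fam172a (0.77), Plpp1 (0.76) and Syt10 (0.74).

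**Figure D4:**
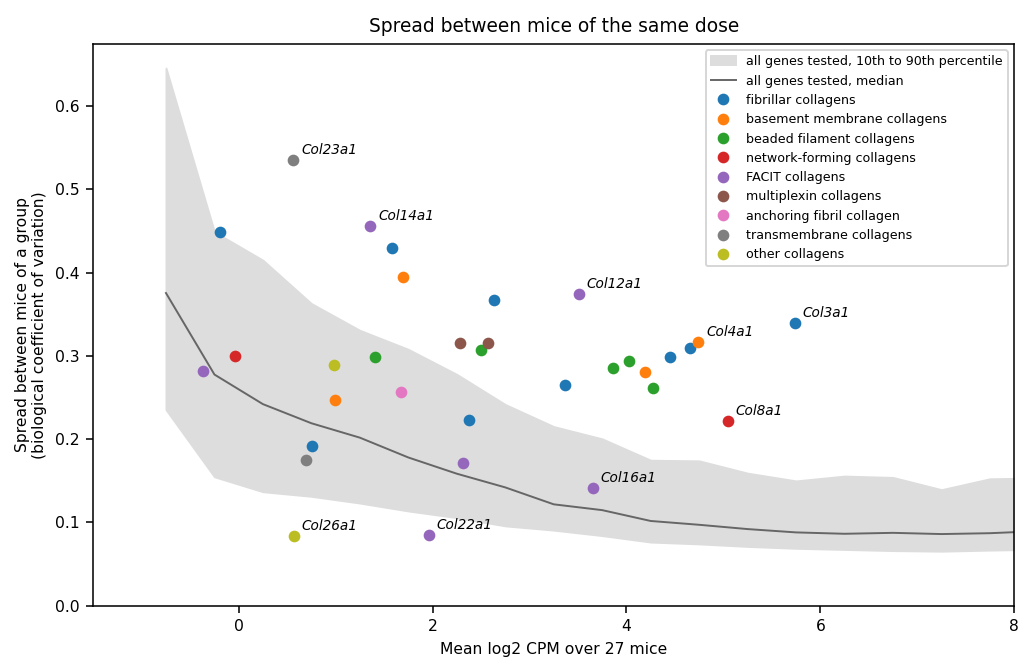
Biological coefficient of variation between mice of the same dose (y axis) against mean log2 CPM (x axis) for the 33 collagen genes, colored by class, over the 10th to 90th percentile (grey) and median (line) of all genes tested. Col3a1 (0.340) and Col4a1 (0.317) lie on the high side of genes of their abundance, and Col22a1 (0.0846) and Col26a1 (0.0841) on the low side.

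The level of fibrillar chains relative to type IV chains was compared per mouse, as the log2 ratio of their summed CPM per kb of merged exons. Vehicle-treated mice had log2 ratios of 1.25, 1.06 and 1.06, and mice at 30 μg/kg 1.09, 0.13 and 0.27. Replicate 1 at 30 μg/kg lay within the vehicle range, and the other two lay below all of the 24 mice in the other groups, which ran from 0.64 to 1.42. The mean was 1.13 ± 0.11 (SD, n = 3) in vehicle and 0.50 ± 0.52 (SD, n = 3) at 30 μg/kg, a difference of -0.63 on the log2 scale, with an SD at 30 μg/kg close to the size of the difference. The groups overlapped, and no test was applied. The low ratios came with different levels, since replicate 2 had a summed fibrillar level of 5.30 and a type IV level of 4.83 CPM per kb, while replicate 3 had 16.3 and 13.5 CPM per kb. In vehicle these sums ran from 10.8 to 13.8 and from 4.93 to 6.62 CPM per kb.

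Markers of other cell types are given for vehicle and 30 μg/kg, where 2.95% of all genes were called higher. The smooth muscle list (10 genes, all tested, 0 called, all above 0, median log2 fold change 2.20) summed to 160 to 185 CPM in vehicle and to 219 to 932 CPM at 30 μg/kg, with 932 CPM in replicate 3 and 219 CPM in replicate 2. Mylk held much of this sum, with a mean of 101 CPM in vehicle and 143 CPM at 30 μg/kg (log2 fold change 0.49). The other genes of the list had log2 fold changes from 1.88 (Lmod1) to 2.79 (Actg2). The fibroblast list (8 of 10 tested, 1 called higher, median 0.65) summed to 35.3 to 43.3 CPM in vehicle and 50.5 to 92.6 CPM at 30 μg/kg. For endothelial cells (4 of 10 called higher, median 0.99) the sum was 24.6 to 30.5 and 33.1 to 75.3 CPM, for pericytes (3 of 6 called higher, median 1.65) 23.9 to 26.6 and 43.7 to 109 CPM, and for adipocytes (4 of 8 called higher, median 2.31) 8.07 to 32.8 and 31.9 to 264 CPM. Enteric glia and neurons (4 of 5 tested called higher, median 2.43) were at 6.09 to 8.86 and 10.8 to 25.1 CPM, and mesothelium (0 of 4 tested called, median 1.89) at 1.67 to 3.79 and 5.86 to 9.21 CPM. In the skeletal muscle list only Acta1 was tested and called, at 2.56 to 4.52 CPM in vehicle and 116 to 162.4 CPM at 30 μg/kg, while Tnnt3, Myh1, Myh4 and Actn3 had at most 3 counts in any library. The squamous list, in which Krt5, Krt4, Krt6a, Trp63 and Lor had at most 3 counts, summed to 33.4 to 58.1 CPM in vehicle and 10.9 to 25.3 CPM at 30 μg/kg, with its tested gene Sprr1a called lower. The part of these cell types in the collagen results was not tested beyond the covariate that follows.

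With the mean log2 CPM of the smooth muscle list as a covariate, 1 of the 33 collagen genes (3.03%) passed at 30 μg/kg against 3.31% of all genes, Col8a1, at a log2 fold change of -1.89 (adjusted p = 0.000517, edgeR). Chains that turned below 0 included Col3a1 (-0.73), Col1a1 (-0.41), Col4a1 (-0.26) and Col4a2 (-0.01), none of which passed. Others stayed above 0, among them Col8a2 and Col4a6. Col12a1 went to 0.16 and Col4a6 to 1.03 (adjusted p = 0.163). Col11a2 was at -1.25 (adjusted p = 0.0677) and Col16a1 at -0.50 (adjusted p = 0.156), neither smaller in size than without the covariate.

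Relations over mice were computed for Col1a1, Col4a1 and Col8a1 (the last chosen after its values were seen) with 8 single marker genes, 24 relations in all, of log2 CPM over 27 mice with two-sided permutation tests of 100000 draws and Benjamini-Hochberg adjustment. The draws shuffled all 27 mice without regard to dose group or index set. These p-values therefore do not allow for differences that mice share through dose or set. Col4a1 was correlated with Dpt, a fibroblast matrix gene (Pearson r = 0.84, p = 1e-05, the smallest the draws can give, adjusted p = 6e-05; Spearman rho = 0.84, p = 1e-05, adjusted p = 8e-05). With the 2 mice of most extreme Dpt removed, r was 0.80, and it was 0.83 in index set 1 (16 mice) and 0.86 in index set 2 (11 mice). With Myh11, the smooth muscle myosin, Col4a1 had r = 0.82 and rho = 0.80 (permutation p = 1e-05 for both, adjusted p = 6e-05 and 8e-05), 0.74 without the 2 farthest mice, 0.72 in set 1 and 0.92 in set 2. Col1a1 had r = 0.77 and rho = 0.74 with Dpt (permutation p = 1e-05 and 3e-05, adjusted p = 6e-05 and 0.00018), 0.63 without the 2 farthest mice, 0.67 in set 1 and 0.86 in set 2. Col1a1 and Myh11 were at r = 0.64 and rho = 0.65 (permutation p = 0.00037 and 0.0003, adjusted p = 0.00178 and 0.00144), 0.60 without the 2 farthest mice, 0.59 in set 1 and 0.71 in set 2.

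Further relations of these chains were with the pericyte gene Rgs5 and the adipocyte gene Adipoq. Col4a1 had r = 0.77 and rho = 0.76 with Rgs5 (permutation p = 1e-05 for both, adjusted p = 6e-05 and 8e-05), 0.67 without the 2 farthest mice, 0.70 in set 1 and 0.84 in set 2. Col1a1 had r = 0.53 and rho = 0.54 with Rgs5 (permutation p = 0.00494 and 0.00412, adjusted p = 0.0148 and 0.0124), 0.49 without the 2 farthest mice, 0.57 in set 1 and 0.55 in set 2. Col4a1 and Adipoq were at r = 0.57 and rho = 0.55 (permutation p = 0.00207 and 0.00413, adjusted p = 0.0071 and 0.0124), 0.50 without the 2 farthest mice, 0.61 in set 1 and 0.62 in set 2. By rank alone, Col1a1 also passed with Pecam1 (rho = 0.47, permutation p = 0.0138, adjusted p = 0.0369; r = 0.44, p = 0.0231, adjusted p = 0.0616) and with the mesothelial gene Msln (rho = 0.46, permutation p = 0.0179, adjusted p = 0.0429; r = 0.24, p = 0.233, adjusted p = 0.31). Without the 2 farthest mice r was 0.32 for both, with 0.33 and 0.29 in set 1 and 0.62 and 0.40 in set 2.

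For Col8a1, the relation with Myh11 was r = -0.25 and rho = -0.30 (permutation p = 0.201 and 0.13, adjusted p = 0.307 and 0.208), with -0.16 without the 2 farthest mice. Over deviations from the dose group means the sign was the opposite, with r = 0.33, and Pecam1, an endothelial gene, had r = 0.64 there against -0.20 over all mice. With Dpt it was r = 0.01 and rho = -0.10 (permutation p = 0.964 and 0.618, adjusted p = 0.964 and 0.674), and over deviations r was 0.26. Without the 2 farthest mice r with Dpt was -0.32, and it was -0.25 in set 1 and -0.02 in set 2. The epithelial gene Epcam had r = -0.57 and rho = -0.57 with Col8a1 (permutation p = 0.00205 and 0.00202, adjusted p = 0.0071 and 0.00808) and -0.53 without the 2 farthest mice, with -0.34 in set 1 and -0.01 in set 2. Over deviations from the dose group means, r was -0.48. The planned relations of Col17a1 were not computed for its low counts, and Ckm and Krt5 had too few counts to enter.

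**Figure D5:**
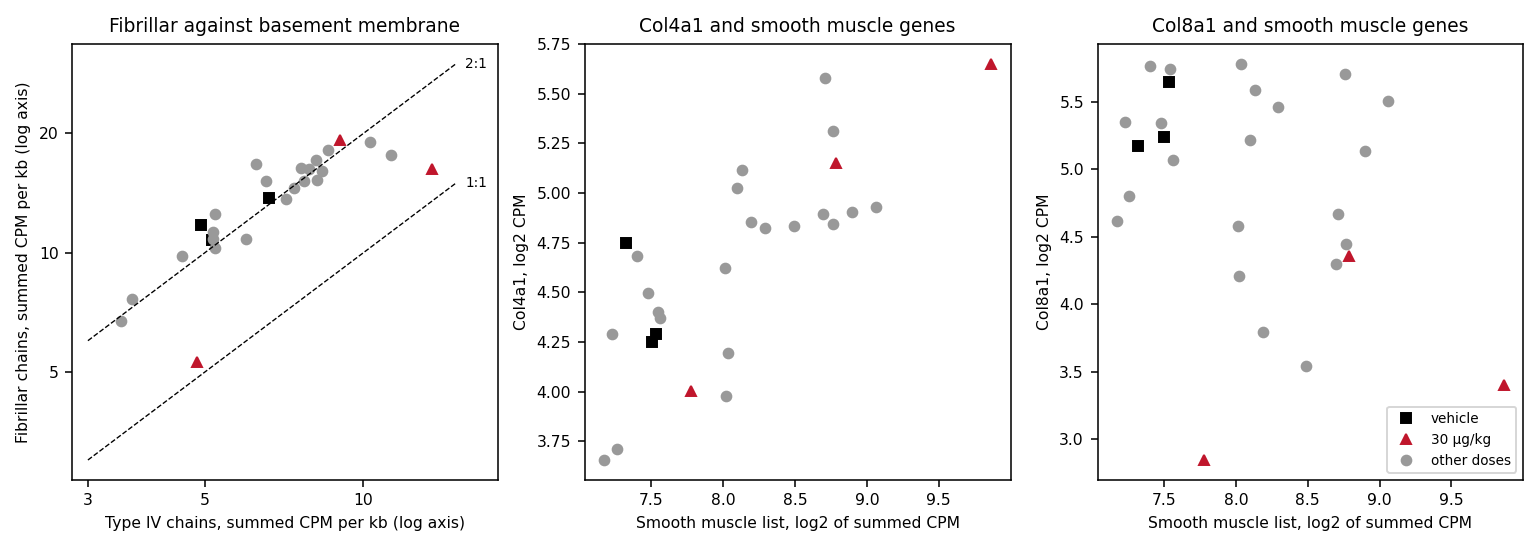
Left, summed CPM per kb of the fibrillar chains against the 4 type IV chains in each of 27 mice (log axes, dashed lines at ratios of 1:1 and 2:1); middle and right, log2 CPM of Col4a1 and Col8a1 against the log2 of the summed CPM of 10 smooth muscle genes. Squares are vehicle, triangles 30 μg/kg and circles the other doses. The triangles near the 1:1 line are replicates 2 and 3, and Col4a1 tends to rise with the smooth muscle sum. The 3 triangles have sums of 219, 441 and 932 CPM, with Col8a1 at 7.02, 20.35 and 10.4 CPM. All 3 sums lie above those of vehicle (160 to 185 CPM).

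The genes that make, process and bind collagen were counted at 30 μg/kg, where 6.16% of all genes passed. In the synthesis and secretion list 1 of 18 tested genes was called, P3h2, a prolyl 3-hydroxylase, at a log2 fold change of 0.96 (SE 0.30, adjusted p = 0.0397, edgeR), and the list had a median of 0.15. The most abundant, P4hb (503 CPM), a subunit of the prolyl 4-hydroxylase, was at 0.05 (adjusted p = 0.829). In the processing and crosslinking list 1 of 10 was called, Bmp1, which removes the C-terminal propeptide of fibrillar procollagens, at 1.47 (SE 0.26, adjusted p = 0.000828), from 7.11 ± 1.83 CPM (SD, n = 3) in vehicle to 19.7 ± 8.73 CPM. In the degradation list 2 of 10 were called higher, the gelatinase Mmp2 at 1.12 (adjusted p = 0.0166) and the inhibitor Timp2 at 0.60 (adjusted p = 0.0275). None of the 8 tested collagen receptors passed, with a list median of 0.05.

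Of 15 tested partners of the basement membrane 13 lay above 0 and 3 passed, 2 higher and 1 lower. Of these, the laminin chain Lamb3 (0.71, SE 0.14, adjusted p = 0.00207, edgeR) and the heparan sulfate proteoglycan Hspg2 (0.69, SE 0.17, adjusted p = 0.0117) rose. Nid2, a nidogen that links laminin to type IV collagen, fell by 1.29 on the log2 scale (SE 0.19, adjusted p = 0.000178), from 12.8 ± 1.73 CPM (SD, n = 3) to 5.20 ± 0.728 CPM. The list median was 0.43. Of 16 tested fibril partners 4 were called higher, Tnxb (2.01), Dcn (1.51), Fbln2 (1.499) and Tnc (1.35), with adjusted p between 0.00409 and 0.0398 by edgeR and a list median of 0.74. These code for tenascins (Tnxb, Tnc), a small proteoglycan that coats fibrils (Dcn, also in the fibroblast list) and a fibulin. The part of the cell type markers given above in these values was not tested.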

How the data were processed

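The authors deposited whole-number read counts per gene, not normalized, 1 table per mouse for 46078 genes. The submitters' processing notes name GRCm38, FastQC 0.11.3, Trimmomatic 0.33, TopHat2 2.1.0, SAMtools 1.2.0, HTSeq 0.6.1 and DESeq; the annotation release and the use of strand are not given in the sources used here. Library sizes excluded the summary lines, which hold reads in no feature (29.1 to 33.3% of each table), with several alignments (30.7 to 37.1%) and in overlapping genes (0.392 to 0.607%). Symbols, coordinates and lengths came from GENCODE M21 (GRCm38), which matched 45229 gene identifiers, and promoters from RefSeq (GRCm38.p6).

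With edgeR 4.0.16 (R 4.3.3), filterByExpr at a minimum count of 10 kept 16496 genes, TMM factors were computed and all 9 groups entered 1 quasi-likelihood fit, with Benjamini-Hochberg adjustment over all genes tested. Called genes had an adjusted p below 0.05 with a change of 1.5-fold or more; slopes over dose rank needed the adjusted p alone. Log2 CPM used a prior count of 2. No covariate beyond dose was in the test. The steps were tested on simulated counts. Alternatives were RLE size factors, DESeq2 1.42.0, limma voom 3.58.1, no filter, only the groups compared, the adjusted p alone, log10 dose, a term for the index set, a smooth muscle covariate and each mouse left out. The slope within each index set and the transcript length in the ratio were added after the data were seen.

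The 27 pairs of mice within groups differed by more than sampling noise (lowest χ2 per degree of freedom 5.84), so each mouse counted as 1 replicate. The members and gene lists were chosen with earlier results of these data known. Named were the collagen genes called in any comparison, the 4 most abundant of the fibrillar, type IV and type VI classes, Col12a1, Col14a1, Col15a1, Col18a1, Col7a1, up to 4 genes per partner list and the 5 nearest genes by correlation; others named for their levels were chosen after these were seen. One gene among those nearest to Col8a1 is not reported here.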

Additional observations from a re-analysis of the deposited data

How the results depend on the processing

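Replicate groups of 3 mice, few counts (a gene with 10 counts has a wide counting error) and a top dose in which mice differed limit what can be called, and dose and index set cannot be told apart for 3, 10 and 30 μg/kg against vehicle. The index set term rests on 1 mouse against 2 at 1 μg/kg. No paired analysis was possible because the labels give mouse numbers and no replicate number shared between groups. Col8a1 kept its call at 30 and 10 μg/kg in 6 of 7 alternatives and in all 27 fits without 1 mouse, and lost it with the index set term. The count of 5 called at 30 μg/kg (1016 of the 16496 genes tested) was 1 with the smooth muscle covariate (546 of 16496). It was 2 in a fit of only the groups compared (662 of 14934) and 2 by limma voom (841 of 16496). By DESeq2 it was 6 (1094 of 30487), and without the filter 7 (1164 of 30487). It ran from 1 to 7 when 1 mouse was left out. These counts were 1 without vehicle replicate 1 or TCDD 30 replicate 3, 2 without vehicle replicate 2, and 3 without vehicle replicate 3, TCDD 0.03 replicate 1 or TCDD 30 replicate 1. With the index set term 4 were called (731 of 16496 genes), of which 1 (Col8a2) was shared, the others being Col12a1, Col23a1 and Col4a2. The count of 1 at 10 μg/kg (294 of 16496 genes) was 2 in a fit of only the groups compared (270 of 14955) and 2 by DESeq2 (371 of 30487). It was 1 to 2 without 1 mouse (2 without vehicle replicate 3, TCDD 1 replicate 1 or TCDD 1 replicate 3). With the index set term it stayed 1 (58 of 16496 genes), which was Col8a2 and not Col8a1. The count of 0 at 3 μg/kg (115 of 16496 genes) was 1 without the filter (180 of 30487), 1 in a fit of only the groups compared (230 of 14788) and 2 by DESeq2 (201 of 30487). It was 0 to 1 without 1 mouse (1 without TCDD 1 replicate 3, TCDD 30 replicate 1 or TCDD 30 replicate 2). At 30 against 3 μg/kg the count without 1 mouse was 0 to 1 (1, Col8a1, without TCDD 30 replicate 1). The 7 slopes (3865 of 16496 genes) became 0 with the index set term (11 of 16496), 0 within set 1 (1 of 16982) and 3 within set 2 (494 of 16169). They were 5 to 9 without 1 mouse. With the smooth muscle covariate there were 8 (3088 of 16496 genes), of which 5 were shared, with Col23a1 and Col6a5 lost and Col4a1, Col5a2 and Col5a3 gained. The ratio of fibrillar to type IV chains moved by less than its spread, from -0.65 to -0.51 in its other forms and from -0.92 to -0.44 without 1 mouse.

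With the smooth muscle covariate the log2 fold change at 30 μg/kg changed sign for Col3a1 (-0.73), Col4a5 (-0.66), Col1a2 (-0.61), Col6a3 (-0.51), Col6a2 (-0.46), Col5a1 (-0.45), Col1a1 (-0.41), Col15a1 (-0.40), Col4a1 (-0.26), Col6a1 (-0.066), Col14a1 (-0.048), Col18a1 (-0.032) and Col4a2 (-0.0090). Without TCDD 30 replicate 1 it changed sign for Col3a1 (-0.40), Col1a1 (-0.19) and Col15a1 (-0.020), without TCDD 30 replicate 3 for Col4a5 (-0.30), Col1a2 (-0.066), Col5a1 (-0.041) and Col15a1 (-0.023), and by limma voom for Col3a1 (-0.13). The highest values without 1 mouse, all without TCDD 30 replicate 2, were 0.63 for Col15a1, 0.66 for Col1a1, 0.57 for Col1a2, 0.52 for Col3a1, 0.74 for Col4a5 and 0.56 for Col5a1. None of these values had passed the test. The Col16a1 slope changed sign with the index set term (0.012) and within set 1 (0.017). The cause of these changes was not tested.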
